A study of Mus musculus with 42 samples.

Results

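The somatic cells of the testis were followed through 10 genes that mark them. Star, Cyp11a1, Cyp17a1, Hsd3b1, Hsd17b3 and Insl3 are genes of the steroid-making Leydig cells, Clu, Ctsl and Wt1 are genes of the Sertoli cells that nurse the germ cells, and Inha is expressed by both. The genes were picked out by symbol with no threshold on their values, though with earlier results of these data known, and 9 of the 10 had a row among the 27409 genes of the testes table. Hsd3b1 had none there, so its testes level was not analysed here.

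The HET and KO libraries came from adult mice with a Pcif1 allele made by Cas9 in B6D2F1/J embryos, a hybrid of C57BL/6J and DBA/2J. That allele was carried on by crosses to C57BL/6J. The labels list its deletion for HET as well as KO. The WT brain libraries came from adult mice with no deletion listed. The allele, from 1 mouse line, lacks 89 bp across exon 15 and intron 16 of Pcif1 in the part that encodes the methyltransferase domain. Testes of mice labelled HET, the control group of this assay, were compared with testes of mice labelled KO, and each genotype gave 3 input and 3 IP libraries of m6Am-Exo-Seq. In brain, 3 WT and 3 KO mice gave input RNA and ribosome footprints, which served as another readout of the same genes. The 18 tissue RNA-seq libraries of the series were not used here.

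PCIF1 methylates the N6 position of a 2′-O-methyladenosine that is the first transcribed base of an mRNA, next to the cap, giving m6Am. m6Am-Exo-Seq enriches capped 5′ ends with an exonuclease and pulls them down with an antibody against m6A, which also binds internal m6A. In the testis, pituitary luteinizing hormone drives Leydig cells to make testosterone from cholesterol, while Sertoli cells answer follicle-stimulating hormone and testosterone and return inhibin, which lowers the release of follicle-stimulating hormone.

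The first transcribed base decides whether a transcript can carry m6Am, so the sequences around annotated starts are shown for the members that had a testes row and an entry in the promoter table of RefSeq (GRCm38.p6). Each line gives 50 bases before the start, the first base of the entry in a capital, and 9 bases after it.
Cyp11a1, chr9:57997974-57998033, plus strand: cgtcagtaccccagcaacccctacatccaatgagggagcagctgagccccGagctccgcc
Hsd17b3, chr13:64089192-64089251, minus strand: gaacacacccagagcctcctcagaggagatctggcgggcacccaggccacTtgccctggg
Insl3, chr8:71689202-71689261, plus strand: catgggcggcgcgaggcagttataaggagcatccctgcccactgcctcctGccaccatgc
Inha, chr1:75507559-75507618, plus strand: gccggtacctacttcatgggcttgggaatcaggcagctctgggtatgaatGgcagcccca
Ctsl, chr13:64370511-64370570, minus strand: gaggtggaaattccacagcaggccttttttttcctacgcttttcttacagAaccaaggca
With Hsd3b1 and a second Cyp11a1 entry, 6 of the 10 members matched 7 entries, and the other members are Star, Cyp17a1, Clu and Wt1. The first base was A in 2 entries, Ctsl and the second Cyp11a1 entry, G in 4 and T in 1. Over all 32851 entries of the table, A was the first base in 34.4% and G in 35.6%. The entries of Inha, Ctsl and Hsd17b3 lie 532, 252 and 61 bases inside the gene as RefSeq draws it, and the second Cyp11a1 entry 16928 bases inside, so the start that is used in testis may be another one. The letters AGGTCA, the core of the element that the steroidogenic regulator NR5A1 binds, were searched on both strands of the 300-base windows. They stood 69 bases before the Inha start and 28 bases before the second Cyp11a1 start, and 16.3% of all entries hold them.

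The deposited testes values are reads divided by a factor for each library, called signal here, and they gave back whole reads. Library totals ranged from 4224175 to 4907380 reads in HET input, from 4151226 to 4971554 in KO input, from 2689591 to 6574479 in HET IP and from 1816831 to 4364847 in KO IP. HET IP replicate 2 stood apart from its group: a chi-square over genes came to 27.5 and 20.3 per gene against the other HET IP libraries, which differed by 9.65 from each other. KO IP replicate 2 was the shallowest library; replicate numbers follow the order of deposit and are names only. Nothing in the labels ties an IP library to an input library, and they call only the RNA-seq samples biological triplicates, so p-values measure the spread between these libraries. Pcif1 itself was low in every testes library, between 5.53 and 10.4 in HET input and between 1.64 and 7.98 in KO input. In brain input it read 253, 318 and 388 in WT and 254, 201 and 259 in KO, which overlapped. A deletion of 89 bp need not change a gene-level count. The level of Pcif1 does not check the genotype labels. In bulk testis, fewer cells of a type and less RNA per cell cannot be told apart.

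The depth that each member had set what could be tested. Over the 12 testes libraries, Clu held 4319 reads, Wt1 2951, Ctsl 1164, Hsd17b3 463 and Inha 362, whereas Cyp11a1 held 109, Insl3 107, Cyp17a1 63 and Star 22. A gene entered a test when 3 or more libraries of the comparison reached a signal of 10. By that filter 5 members were tested between genotypes in input and in IP (Hsd17b3, Inha, Clu, Ctsl and Wt1), 7 were tested for IP against input (with Cyp11a1 and Insl3), and Star and Cyp17a1 were not tested. Read counts are not corrected for transcript length, so levels are compared between libraries and not between genes.

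**Figure D1:**
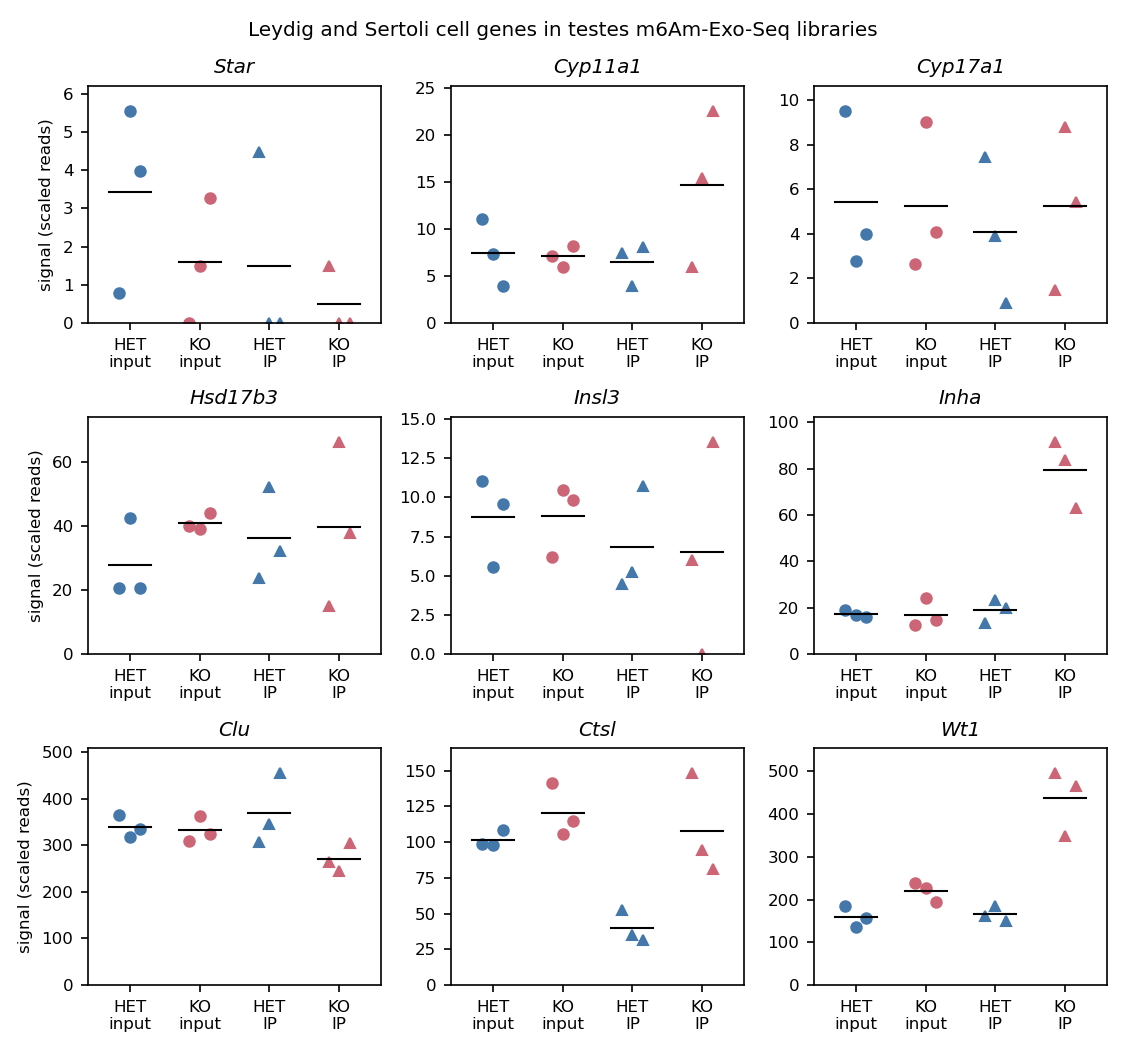
Signal (reads divided by the library factor, linear axes from 0) of the 9 members with a testes row in each of the 12 libraries; circles are input, triangles IP, blue HET and red KO, and the bar is the group mean. Inha and Wt1 stand higher in all 3 KO IP libraries than in any other library, Ctsl is low in the 3 HET IP libraries, and the other members overlap between most groups.

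Among the Leydig cell genes, none of those tested was called between genotypes in input RNA. Hsd17b3 encodes the enzyme that turns androstenedione into testosterone. Its HET input libraries read 20.6, 42.5 and 20.7, and its KO input libraries 39.9, 39.0 and 44.2. The 3 KO libraries lay close together, and 1 HET library, replicate 2, lay among them. The log2 difference was 0.62 ± 0.269 (SE; 95% interval 0.04 to 1.20; limma adjusted p = 0.162). Without HET input replicate 2 it was 0.96 with an adjusted p of 0.0385, so that library decides the call.

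The IP libraries of Hsd17b3 spread widely within each genotype. They read 23.9, 52.2 and 32.2 in HET and 15.0, 66.1 and 37.8 in KO, so the groups overlapped over most of their range. The KO to HET difference in IP was -0.03 ± 0.489 (SE, limma adjusted p = 0.976). Its 95% interval, -1.08 to 1.03, spans a change of more than 1 log2 unit either way.

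The steroidogenic genes upstream of Hsd17b3 were covered by few reads. Star encodes the protein that moves cholesterol into mitochondria, the step that hormones control most acutely. Its signal was 0.791, 5.54 and 3.98 in HET input and 0, 1.50 and 3.27 in KO input. In IP, Star read 4.48, 0 and 0 in HET and 1.50, 0 and 0 in KO. A count of 0, found in 5 libraries, allows up to 3 reads, which is a signal of 1.96 to 6.61 depending on the library; such limits cover counting error only. No genotype difference of Star was detectable at this depth.

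Cyp11a1 encodes the side-chain cleavage enzyme that makes pregnenolone from cholesterol. Its input signal was 11.1, 7.39 and 3.98 in HET and 7.09, 6.00 and 8.18 in KO. Its IP signal was 7.46, 3.92 and 8.04 in HET and 5.99, 15.4 and 22.5 in KO. The 2 highest values of all 12 libraries were KO IP libraries, while the third KO IP library lay within the HET range. IP against input was -0.14 ± 0.524 in HET and 0.79 ± 0.524 in KO on the log2 scale, and neither passed the test (limma adjusted p = 0.865 and 0.234).

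Cyp17a1 encodes the enzyme that converts progestins into androgens. It read 9.49, 2.77 and 3.98 in HET input, 2.66, 9.0 and 4.09 in KO input, 7.46, 3.92 and 0.893 in HET IP, and 1.50, 8.81 and 5.41 in KO IP. All 4 groups overlapped, with means between 4.09 and 5.41. In the RefSeq annotation Cyp17a1 overlaps the long non-coding gene Gm41857, and the use of strand in the counting is not given in the sources used here.

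Insl3 encodes the Leydig cell peptide hormone that guides the descent of the testis. Its input signal was 11.1, 5.54 and 9.56 in HET and 6.20, 10.5 and 9.82 in KO, with means of 8.72 ± 2.86 and 8.84 ± 2.31 (SD, n = 3 each). Its IP signal was 4.48, 5.22 and 10.7 in HET and 5.99, 0 and 13.5 in KO, and the value of 0 fell in the shallowest library. Neither IP against input nor the difference between genotypes passed the test. Insl3 overlaps Jak3 in RefSeq, so reads of both genes may have been shared; Jak3 itself read 5.58 to 12.6 in HET input and 6.55 to 9.75 in KO input.

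A list of 15 Leydig cell markers, members included, had 0 of its 8 tested genes called in input by limma and edgeR, each with 2 genes at an unadjusted p below 0.05, and 0 of the 2 that DESeq2 gave an adjusted p. Of the steroidogenesis pathway, 0 of 8 tested genes were called in input, 0 of 8 in IP between genotypes and 0 of 9 for the genotype difference in enrichment, with 1, 2 and 1 genes at an unadjusted p below 0.05 by limma. edgeR and DESeq2 on the recovered reads also called 0 in each. Hsd3b6, the 3-beta-hydroxysteroid dehydrogenase that has a testes row where Hsd3b1 has none, read 66.4, 103 and 81.2 in HET input and 43.4, 46.5 and 89.2 in KO input. The difference of -0.53 ± 0.248 missed the threshold (limma adjusted p = 0.191), and reads of such near-identical paralogs are uncertain.

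Inha encodes the alpha subunit of inhibin, the feedback hormone of the Sertoli cell that Leydig cells also express. No difference was detected in input RNA. HET input libraries read 19.0, 16.6 and 15.9, and KO input libraries 12.4, 24.0 and 14.7. The KO values enclosed the HET values, and the log2 difference was -0.06 ± 0.302 (SE; 95% interval -0.71 to 0.59; limma adjusted p = 0.924).

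The IP libraries gave another picture for Inha. They read 13.4, 23.5 and 19.7 in HET and 91.3, 83.7 and 63.1 in KO. Every KO IP library was more than 2 times as high as any HET IP library or any input library. The group means were 18.9 ± 5.09 in HET IP and 79.4 ± 14.6 in KO IP (SD, n = 3 each), resting on 67 and 169 reads. Inha rose by 2.03 ± 0.340 on the log2 scale (95% interval 1.30 to 2.77; limma adjusted p = 0.0015).

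Set against its input, Inha was not enriched in HET testes, with a log2 IP to input difference of 0.10 ± 0.315 (limma adjusted p = 0.845), and was enriched in KO testes by 2.19 ± 0.315 (limma adjusted p = 4.4e-05). The difference between the enrichments, tested as an interaction over all 12 libraries, was 2.09 ± 0.446 (95% interval 1.15 to 3.04; limma adjusted p = 0.00952). It passed the test under each of the 18 alternatives run. The input, IP and enrichment comparisons share libraries, so they are views of 1 set of data and not separate evidence.

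Wt1 encodes the zinc finger transcription factor that keeps Sertoli cells in their fate. Its input signal was 185, 135 and 156 in HET and 239, 226 and 194 in KO, and the 3 KO libraries lay above the 3 HET libraries. The means were 159 ± 25.2 and 220 ± 23.4 (SD, n = 3 each). The increase of 0.47 ± 0.135 on the log2 scale (95% interval 0.19 to 0.76) passed the test narrowly (limma adjusted p = 0.0422). Of the 5 members tested in input it was the only one called, where 3.32% of the 11278 genes tested were called higher in KO and 6.01% lower; with each library scaled to the same total, the split over all genes turned from 374 higher and 678 lower to 582 higher and 460 lower, and Wt1 was still called higher. The call of Wt1 was lost without HET input replicate 2 (adjusted p = 0.153), HET input replicate 3 (0.127), KO input replicate 1 (0.0816) or KO input replicate 2 (0.132), and in the fit over all 12 libraries (0.352).

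In the IP libraries Wt1 differed more between the genotypes. It read 161, 184 and 151 in HET and 495, 348 and 467 in KO, and the lowest KO value was well above the highest HET value. The difference was 1.38 ± 0.216 (95% interval 0.92 to 1.85; limma adjusted p = 0.00105). Wt1 was at its input level in HET IP (0.07 ± 0.177; adjusted p = 0.809) and enriched in KO IP (0.98 ± 0.177; adjusted p = 0.000344). The enrichments differed by 0.91 ± 0.250 (95% interval 0.38 to 1.44; limma adjusted p = 0.0315), and that call was lost in 8 of 18 alternatives. These were the fit with no filter (0.0557) and those without HET IP replicate 3 (0.0678), KO IP replicate 1 (0.0631) or 3 (0.0529), HET input replicate 1 (0.0972) or 3 (0.0675), or KO input replicate 2 (0.0703) or 3 (0.0881). Wt1 adjoins the antisense gene Wt1os, which read 13.2 to 35.1 in KO IP, far below Wt1.

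Ctsl encodes cathepsin L, a lysosomal protease that Sertoli cells secrete around the germ cells. In input its values were 98.8, 97.9 and 108 in HET and 142, 106 and 115 in KO. 1 KO library lay within the HET range, and the difference of 0.24 ± 0.143 did not pass the test (95% interval -0.07 to 0.54; limma adjusted p = 0.317).

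Ctsl was the member that the IP depleted in HET testes. Its HET IP libraries read 52.2, 35.3 and 31.3, all below every other library, and its KO IP libraries 148, 94.7 and 81.1. IP against input was -1.37 ± 0.246 in HET (limma adjusted p = 0.000611) and -0.20 ± 0.246 in KO (adjusted p = 0.54), and Ctsl rose by 1.41 ± 0.321 from HET IP to KO IP (adjusted p = 0.00708). The enrichments differed by 1.18 ± 0.348 (95% interval 0.44 to 1.91; limma adjusted p = 0.0431). This last call sat at the threshold and was lost in 10 of 18 alternatives. These were the fit with no filter (0.0706) and those without HET IP replicate 2 (0.065) or 3 (0.0942), KO IP replicate 1 (0.0826), HET input replicate 1 (0.0894), 2 (0.0813) or 3 (0.0978), or KO input replicate 1 (0.0529), 2 (0.115) or 3 (0.0944). By contrast, the IP difference between genotypes was called under every alternative run.

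Clu, which encodes the secreted chaperone clusterin, had the most reads of the members. Its input signal was 364, 318 and 335 in HET and 308, 363 and 324 in KO, and the groups overlapped. The log2 difference was -0.03 ± 0.102, with a 95% interval of -0.25 to 0.19. Its IP signal was 306, 345 and 454 in HET and 263, 244 and 304 in KO, so all 3 KO IP libraries lay below all 3 HET IP libraries by a small margin. The IP difference of -0.43 ± 0.215 did not pass the test (limma adjusted p = 0.153), and passed it in the fit over all 12 libraries (adjusted p = 0.0444). Without HET IP replicate 3 it was -0.27 (adjusted p = 0.49). Clu thus had the opposite sign to the other Sertoli cell members in IP.

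**Figure D2:**
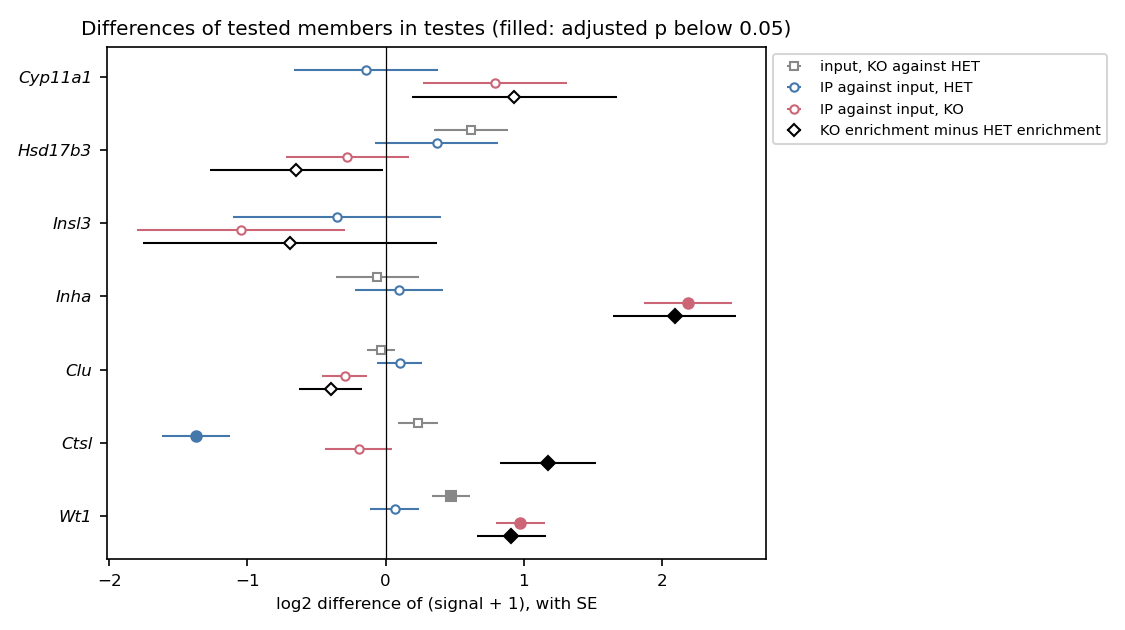
Log2 differences of (signal + 1) with their SE for the 7 tested members: input KO against HET (grey squares), IP against input in HET (blue) and KO (red), and the difference between these enrichments (black diamonds); filled symbols passed an adjusted p of 0.05. Inha, Ctsl and Wt1 have filled black diamonds at 2.09, 1.18 and 0.91, while Ctsl in HET is the only filled symbol left of 0.

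Counted together, 3 of the 5 members tested were higher in KO IP than in HET IP (Inha, Wt1 and Ctsl) and 0 were lower, where 11.5% of 11345 genes were called higher and 14.8% lower. All 3 were called under each alternative run, including edgeR and DESeq2 on recovered reads. Without HET IP replicate 2 the differences were 2.20 for Inha, 1.46 for Wt1 and 1.35 for Ctsl. Of the 7 members tested for enrichment, 0 were enriched and 1 was depleted in HET, against 14.7% and 15.4% of 12387 genes. In KO, 2 were enriched and 0 depleted, against 21.2% and 24.3%. For the genotype difference, 3 of 7 were higher in KO and 0 lower, against 3.72% and 6.25%. The median difference between the enrichments was 0.91 over the 7 tested members and -0.01 over all genes tested. Cyp11a1, at 0.93, reached a signal of 10 in 3 libraries only (11.1 in HET input, 15.4 and 22.5 in KO IP). It passed the filter largely through the group where it is high, and the median of the members depends on its being counted.

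The libraries of the groups did not overlap for Wt1 in input (above in KO), where 13.3% of all tested genes lay above and 16.5% below. In IP, Inha, Wt1 and Ctsl lay above and Clu below in KO, against 20.9% and 22.1% of all tested genes. For IP against input, 0 members lay above in HET and Ctsl lay below (22.8% and 23.1% of genes), and in KO Inha and Wt1 lay above and Clu below (26.0% and 29.0% of genes).

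**Figure D3:**
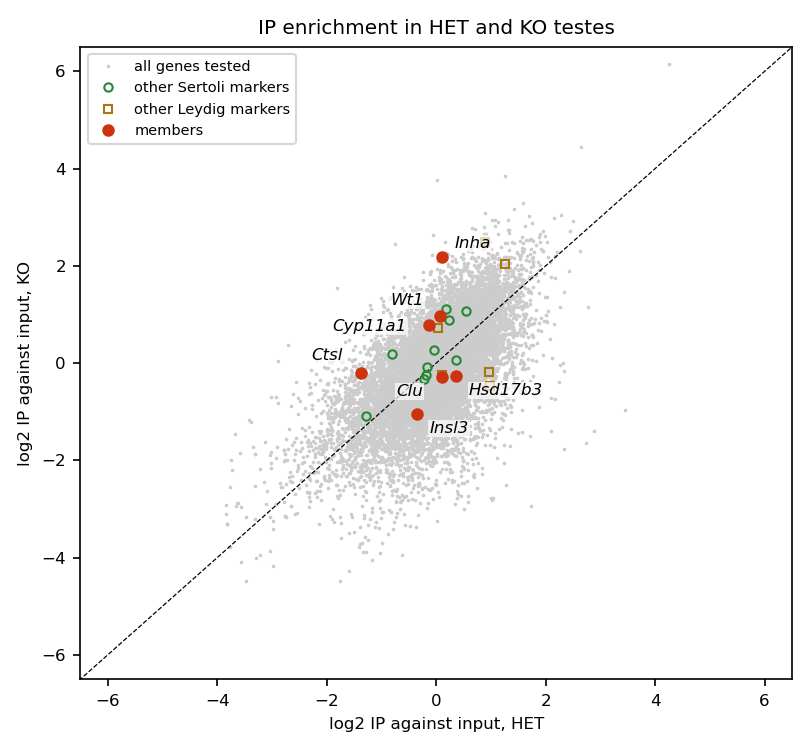
Log2 IP against input in HET (x axis) and KO (y axis) for the 12387 genes tested (grey), with the 7 tested members in red, other Sertoli cell markers as green circles and other Leydig cell markers as brown squares; the dashed line marks equal enrichment. Inha lies at 0.10 in HET and 2.19 in KO, Ctsl at -1.37 and -0.20, and both stand above the line.

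The authors' deposited table carries a log2 fold and an adjusted p per gene. Its header does not state the contrast, but its name gives m6A enrichment in KO against HET. Read so, it is the genotype difference in enrichment on the same libraries, and not separate evidence. In the authors' deposited table the log2 fold was 2.01 for Inha (adjusted p = 0.00228), 1.23 for Ctsl (0.0116), 0.94 for Wt1 (0.00495), -0.41 for Clu (0.25) and -0.49 for Hsd17b3 (0.664). Star, Cyp11a1, Cyp17a1 and Insl3 had no adjusted p there.

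Other markers of the Sertoli cell were read from a list of 22 genes that holds Inha, Clu, Ctsl and Wt1. In input, 3 of the 13 tested genes were higher in KO and 0 lower. Beside Wt1 these were Kitl, the ligand of the germ cell receptor KIT (0.69 ± 0.195; limma adjusted p = 0.0408), and Vim, the intermediate filament vimentin (0.47 ± 0.122; adjusted p = 0.0303). The list median was 0.24, against -0.0049 over all genes. Without the members 2 of 9 were higher and 0 lower, with a median of 0.24. Over all genes tested in input, limma called 3.32% higher and 6.01% lower. These shares also apply to the input counts of the other lists. Sox9, a defining Sertoli cell factor, read at most 1.79 in any library, and the hormone gene Amh at most 11.0, so these markers could not be tested.

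In IP, 5 of the 13 tested Sertoli cell markers, members included, were higher in KO and 0 lower. The list median was 0.85 against 0.01 over all genes. Without the members 2 of 9 were higher and 0 lower, with a median of 0.77. Over all genes tested in IP, limma called 11.5% higher and 14.8% lower. These shares also apply to the IP counts of the other lists. Vim rose by 1.00 ± 0.205 (limma adjusted p = 0.00416), and Tjp1, a tight junction protein named here after its values were seen, by 0.85 ± 0.218 (adjusted p = 0.013). For the genotype difference in enrichment, 3 of 14 were higher, all of them members, and 0 lower, against 3.72% and 6.25% of all genes. The same shares apply to the counts of the other lists for this difference. The summed signal of the Sertoli cell list, members included, was 1151 to 1308 in HET input and 1382 to 1516 in KO input. In IP it was 1247 to 1305 in HET and 2042 to 2083 in KO.

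In IP, 3 of the 8 tested Leydig cell markers, members included, were higher in KO and 0 lower. They were Inha, the hedgehog receptor gene Ptch1 (1.74 ± 0.289; limma adjusted p = 0.00143) and the retinaldehyde dehydrogenase gene Aldh1a1 (1.09 ± 0.278; adjusted p = 0.0124). The list median was 0.06, near the 0.01 of all genes. Without the members 2 of 6 were higher and 0 lower, with a median of -0.03. For the genotype difference in enrichment, 10 were tested. Inha and Ptch1 (1.61 ± 0.402, limma adjusted p = 0.0208) were higher. The prolactin receptor gene Prlr was lower (-1.45 ± 0.433, limma adjusted p = 0.0446). Of all genes, 3.72% were called higher and 6.25% lower.

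Germ cells make up most of the testis. Of 12 tested spermatid markers, 0 were higher and 4 lower in KO input, and 0 were higher and 8 lower in KO IP. Their summed signal was 19086 to 21125 in HET input, 16126 to 16786 in KO input, 28540 to 51898 in HET IP and 17590 to 18187 in KO IP. HET IP replicate 2 held the value of 51898, and the next highest HET IP library held 33885. Spermatogonia markers had a summed signal of 387 to 397 in HET input, 471 to 531 in KO input, 503 to 558 in HET IP and 660 to 819 in KO IP, with 0 of 7 called in input by limma (2 at an unadjusted p below 0.05), 0 by edgeR and 0 of the 5 that DESeq2 gave an adjusted p. Since signal is relative to the library, the part of these shifts in the values of Inha, Wt1 and Ctsl was not tested. Blood and adrenal markers had 0 tested genes and a summed signal of at most 9.75 in any library.

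Within the inhibin and activin system, the pathway of Inha, 0 of 5 tested genes were called in input by limma or edgeR, each with 0 at an unadjusted p below 0.05, and 0 of the 1 that DESeq2 gave an adjusted p. In IP, 3 of 6 were higher in KO, Inha among them, and 0 lower. Without Inha 2 of 5 were higher and 0 lower, against 11.5% and 14.8% of all genes tested. Smad3, a signal carrier of activin, read 17.9, 14.4 and 18.8 in HET IP and 94.3, 88.1 and 66.7 in KO IP, with a difference of 2.22 ± 0.323 (limma adjusted p = 0.000707). Smad2, its close relative, rose by 1.06 ± 0.270 (adjusted p = 0.0125). Smad3 also differed in enrichment, by 1.71 ± 0.476 (adjusted p = 0.0335).

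Among the cathepsins and their inhibitors and partners, 7 genes were tested in IP. Ctsl was higher in KO, and Ctsa, the lysosomal carboxypeptidase cathepsin A, was lower (-0.90 ± 0.279; limma adjusted p = 0.0299). The list median was -0.35. In enrichment Ctsl and Ctsa (-1.08 ± 0.317; adjusted p = 0.0424) again differed in opposite directions among 8 tested genes.

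The supply of cholesterol to steroidogenesis was read from 17 genes, of which 14 were tested. In input 0 were called by limma, edgeR or, of the 12 that it gave an adjusted p, DESeq2, with 2 at an unadjusted p below 0.05 by each. In IP, Sqle, which makes squalene epoxide, was higher (0.58 ± 0.195; limma adjusted p = 0.041), and Fdft1, squalene synthase (-0.83 ± 0.179; adjusted p = 0.00558), and Insig1, a brake on sterol synthesis (-0.99 ± 0.302; adjusted p = 0.0278), were lower. Fdft1 and Insig1 were also lower for the genotype difference in enrichment, at -0.64 ± 0.181 and -1.07 ± 0.328 (adjusted p = 0.0364 and 0.0499).

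Regulators of steroidogenesis were read from 19 genes. In input, 0 of 13 tested were higher and 2 were lower in KO: Nr4a1, an orphan nuclear receptor that hormones induce in Leydig cells (-0.45 ± 0.112; limma adjusted p = 0.0242), and Crem (-0.38 ± 0.085; adjusted p = 0.0146), a cAMP-responsive factor that is also on the spermatid list. In IP, 4 of 12 were higher and 1 lower. The higher genes were Ptch1, Gata6, Akap1 and Prkar1a, and the lower was Crem. Akap1, an anchor of protein kinase A on mitochondria, also differed in enrichment (1.37 ± 0.324; adjusted p = 0.016).

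Likeness of pattern was read as Pearson's r of log2(signal + 1) over the 12 testes libraries, which share 4 groups and their depths, and it is given as a description. Inha was most like Zc3h18 (0.96), Gm13238 (0.95) and Dok2 (0.95). Wt1 was most like Brd2 and Nr2f6 (0.98 each), and Ctsl most like Man2c1, Atp5b and Dgkd (0.98 each). The nearest gene was Mettl14 for Clu (0.94), Etv5 for Hsd17b3 (0.89), Slc39a11 for Cyp11a1 (0.91) and Gpc1 for Insl3 (0.94). Members were left out of the search for nearest genes. Between members, r ranged from -0.64 for Clu and Wt1 to 0.87 for Inha and Wt1.

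In brain, where several of these genes are also expressed, the values were taken to be scaled by library as well. They gave no whole reads, and no count model was used. Clu, a gene that astrocytes express, read 2298 to 2464 in WT input and 2104 to 2270 in KO input. All 3 KO input values lay below the WT values, yet the difference of -0.14 ± 0.072 did not pass the test (95% interval -0.31 to 0.03; limma adjusted p = 0.542), and 7.84% of all tested genes lay below without overlap. Clu footprints read 6040 to 7637 in WT and 6587 to 7848 in KO, which overlapped.

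Ctsl input in brain was between 406 and 459 in WT and between 364 and 459 in KO, and its footprints were 570, 989 and 492 in WT and 855, 762 and 1084 in KO. The KO footprints lay above 2 of the 3 WT libraries, and the difference of 0.45 ± 0.279 did not pass the test (limma adjusted p = 0.542). Without WT footprint replicate 2 it was 0.75 (adjusted p = 0.0594), without WT footprint replicate 3 it was 0.25 (adjusted p = 0.835), and with equal library totals 0.70 (adjusted p = 0.311). Of the 2 members tested in footprints, 0 lay wholly above or below WT, against 8.46% and 8.74% of genes.

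Inha RNA was present in brain input, at 36.9 to 43.1 in the WT libraries and 43.2 to 64.2 in the KO libraries. The KO values lay just above the WT values, as for 10.6% of all tested genes, and the difference of 0.38 ± 0.218 did not pass the test (limma adjusted p = 0.562). Few Inha footprints were counted. The footprint values were 1.82, 1.37 and 3.04 in WT and 1.20, 0 and 0 in KO. The footprint to input ratio differed by -1.59 ± 0.562 on the log2 scale (95% interval -2.83 to -0.35), at an unadjusted p of 0.0163 and a limma adjusted p of 0.469, so it failed the correction. Its size depended on the pseudocount, with -2.11 at 0.5 and -0.74 at 5, since the footprint values are near 0. Cyp11a1 input read 22.0, 10.1 and 10.6 in WT and 3.30, 7.63 and 12.9 in KO, and it was not called either.

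By limma, 0 of 4 members were called in brain input, 0 of 2 in footprints and 0 of 4 in the footprint to input ratio, with 0, 0 and 1 at an unadjusted p below 0.05. Over all genes 0.176% were called higher and 0.0784% lower in KO input, 0.146% and 0.0765% in footprints, and 0.0908% and 0.0968% in the ratio. Star, Cyp17a1, Hsd3b1, Hsd17b3, Insl3 and Wt1 did not pass the brain filter.

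**Figure D4:**
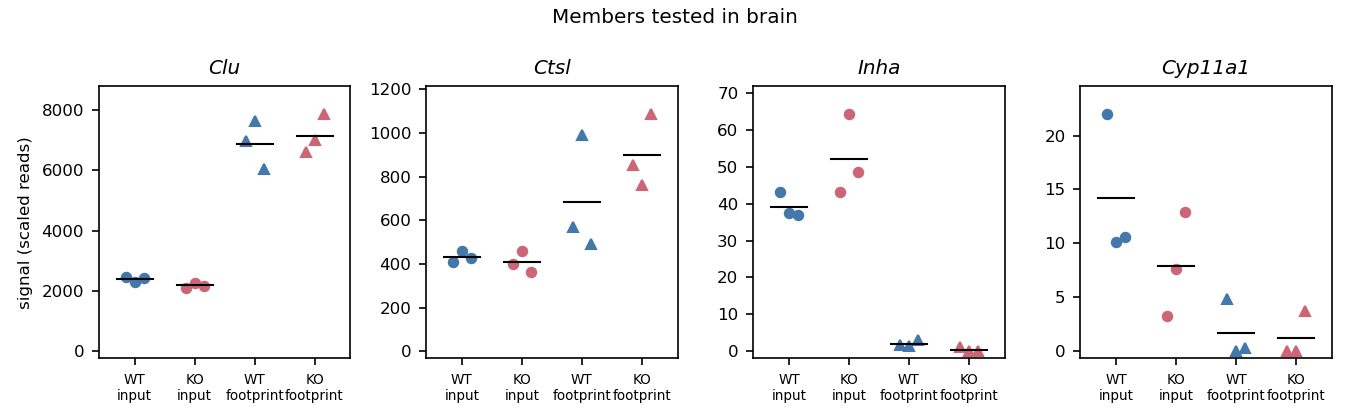
Signal of the 4 members tested in brain (linear axes, 1 panel per gene) in WT (blue) and KO (red) input (circles) and ribosome footprint (triangles) libraries, with the group mean as a bar. Genotypes overlap for Ctsl and Cyp11a1 in both kinds of library, and Inha footprints lie between 0 and 3.04.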

How the data were processed

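Each deposited table holds signal per gene and library. That these are reads scaled by a library factor was read from the testes values and assumed for brain. The submitters' processing notes name DESeq2 1.25.10, DESeq, STAR, Salmon 0.12.0 and R 3.6.2 without their roles; build, annotation and strandedness: not given in the sources used here. All testes values were whole multiples of a library unit within 0.01 of a read, so whole-read counts were recovered from the deposited values; brain values were not. The authors' deposited log2 folds and p-values were only quoted.

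Main tests used limma 3.58.1 (R 4.3.3; empirical Bayes with a mean-variance trend) on log2(signal + 1), for genes that reached a signal of 10 in 3 or more libraries, with Benjamini-Hochberg adjustment over all of them and a threshold of 0.05. A fold is on that scale, which understates changes of low genes. Input and IP genotype fits used 6 libraries each, and enrichment fits 12. Alternatives were pseudocounts 0.5 and 5, no filter, equal library totals, each replicate left out, edgeR 4.0.16 quasi-likelihood (TMM) and DESeq2 1.42.0 on recovered reads, and the spread of all 12 testes libraries. The fits of testes input and of the genotype difference in enrichment were also run on simulated counts. Those counts had the same spread setting for every gene and no outlying library. They do not show how the fits behave with the spread of the IP libraries here. No 2 replicates held identical values.

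Members and lists (markers of Leydig, Sertoli, germ, macrophage, peritubular and vascular, blood and adrenal, and epididymal cells, and 6 pathways) were chosen with earlier results of these data known. Listed genes are named when called, at most 4 per list and direction by size, and likeness names up to 3 nearest genes; 1 is not reported here. Promoter sequences are from RefSeq.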

Additional observations from a re-analysis of the deposited data

Results flagged for a closer look

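The interaction test over all 12 libraries called 3.72% of 12387 genes higher and 6.25% lower in KO (limma adjusted p below 0.05). For 21 genes of the lists, the IP to input difference was not the same in KO and HET testes by that test. The lists share genes, and the number of different list genes tested is not given. The 21 therefore cannot be set against the shares over all genes. Of the members, the genes called were Inha with a log2 difference of 2.09, Ctsl with 1.18 and Wt1 with 0.91. Among the other Leydig cell markers and pathway genes the ratio was higher in KO for Smad3 (1.71), Ptch1 (1.61) and Akap1 (1.37). It was lower in KO for Prlr (-1.45), Ctsa (-1.08), Insig1 (-1.07) and Fdft1 (-0.64). Of the spermatid markers it was lower for Acrv1 (-3.31), Zpbp (-1.77), Spaca1 (-1.43), Gapdhs (-1.38) and Acr (-0.73), the last named after its values were seen. Of the spermatocyte markers it was higher for Mlh3 (2.09) and lower for Ldhc (-1.90), Spo11 (-1.83) and Sycp2 (-0.77). The spermatogonia marker Stra8 (-1.09) and the macrophage marker Tyrobp (-3.0) were lower. Groups of 3 libraries are too small for a test of single outlying samples.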

How the results depend on the processing

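No paired analysis was possible because the labels carry no replicate numbers, so neither IP with input libraries nor brain footprints with input libraries of a lysate could be matched. Over the members' log2 differences, 568 alternative values kept direction and side of the threshold, 23 fell short of it, 2 newly passed it and 26 changed sign. In the fit over all 12 testes libraries, which pools their spread and also tests 12387 genes in place of 11278 in input and 11345 in IP, the members called in input went from 1 to 0 and all genes called from 1052 to 25, in IP all genes went from 2988 to 4780, and Clu passed in IP (adjusted p = 0.0444). With no filter, which adjusts over more genes, the members called for the genotype difference in enrichment went from 3 to 1 and all genes from 1235 to 793. A pseudocount of 0.5 took the brain footprint calls over all genes from 32 to 21. Equal library totals turned the split over all genes in HET enrichment from 1822 enriched and 1910 depleted to 1452 and 2253.

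The differences that changed sign were all uncalled. With equal library totals Inha input was 0.00036, Clu input 0.032, Hsd17b3 IP 0.030 and Wt1 HET enrichment -0.030. With edgeR Inha input was 0.018, Hsd17b3 IP 0.036 and the Insl3 enrichment difference 0.21, and with DESeq2 Hsd17b3 IP was 0.071. The cause was not tested. Leaving out 1 replicate gave 0 to 1 members called in input (281 to 1433 over all genes), 3 in IP in each fit (1606 to 2814), and 1 to 3 for the enrichment difference (546 to 1729). In brain it gave 7 to 24 genes in input, 0 to 956 in footprints and 15 to 874 in the footprint to input ratio, against 39, 32 and 31 with every library; the highest footprint and ratio counts came without WT footprint replicate 2. The same fits gave -0.32 to 0.13 for Inha input, -0.098 to 0.022 for Clu input and -0.50 to 0.53 for Hsd17b3 IP. In HET enrichment they gave -0.48 to 0.14 for Cyp11a1, -0.071 to 0.31 for Inha, -0.058 to 0.23 for Clu and -0.044 to 0.18 for Wt1. In KO enrichment they gave -0.75 to 0.28 for Hsd17b3 and -1.87 to 0.063 for Insl3, and the Insl3 enrichment difference was -1.51 to 0.42. In brain they gave -0.033 to 0.14 for Clu footprints and -0.13 to 1.41 for the Cyp11a1 ratio. Equal totals moved the median of all genes from -0.07 to -0.18 in KO enrichment, from 0.01 to 0.26 in brain footprints and from 0.00 to 0.22 in the brain ratio. Depth limits Star, Cyp17a1, Cyp11a1 and Insl3, with 22 to 109 reads each over 12 libraries.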

Other observations

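Of the spermatogonia markers, 2 of 7 were called higher in KO input with equal library totals. With those totals 582 of 11326 genes were called higher and 460 lower. The main fit called 0 of 7 in input. In KO IP the main fit called 2 of 8 higher, against 11.5% of all genes. Of 12 spermatocyte markers, 2 were higher and 2 lower in KO input, and 2 were higher and 2 lower among the 11 tested in IP. Of 4 macrophage markers, 0 were higher in input or in IP. In each 1 was lower, but not the same gene. It was Aif1 in input (-0.29 ± 0.083, limma adjusted p = 0.0451) and Tyrobp in IP (-2.94 ± 0.737, limma adjusted p = 0.0115). Of the peritubular and vascular markers, 0 of 3 in input and 0 of 2 in IP were called by limma, with 0 and 1 at an unadjusted p below 0.05. Of the 9 epididymis markers, 5 had a testes row and only Cst8 was tested in input. Cst8 was lower in KO (-0.35 ± 0.083, limma adjusted p = 0.0193), so the input count of this list rests on 1 gene. In IP 0 of 2 were called. Of the insulin-like hormones and receptors, the family of Insl3, 0 of 2 were called in input and 0 of 2 in IP, with 1 and 0 at an unadjusted p below 0.05, and 0 of 3 for the genotype difference in enrichment.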
